A study of Mus musculus with 4 samples.

Results

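Immediate early genes are switched on within minutes of a stimulus, without new protein synthesis, because the transcription factors that drive them are already present. Calcium, cAMP and MAP kinase signals act on CREB and on serum response factor at their promoters, and most of their transcripts and proteins are short-lived. FOS and JUN proteins pair as the AP-1 transcription factor, and the EGR zinc fingers and NR4A orphan nuclear receptors are themselves transcription factors that start a second wave of genes. Glucose and cAMP raise many of these genes in beta cells, and the handling of a tissue raises them as well. The list examined here held 37 names covering the FOS, JUN, EGR and NR4A families, the IER genes, DUSP phosphatases, regulators of RNA decay and growth, KLF factors, and activity- or cAMP-responsive genes. Members were the rows of the deposited table of 55487 genes with 1 of these symbols. The table held 36 of them, and Per1l matched no row. The period gene Per1 may be the gene meant; it is not in the member counts, and its values stand with those of the other immediate early genes. All 36 passed the filter on low values, a normalized count of 10 or more in at least 2 of 4 libraries, which 16589 genes passed.

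Poly(A)-enriched RNA came from freshly isolated pancreatic islets of C57BL/6 mice aged 30 weeks. The 2 control samples were Ggcx flox/flox without Cre, and the 2 knockout samples were Ggcx flox/flox; Pdx1-Cre, in which the transgene drives Cre in cells of the pancreatic lineage. Both groups carry the floxed Ggcx alleles, each sample pools islets from 2 mice, and no sample carried Cre with an intact Ggcx gene, so Cre and the loss of Ggcx cannot be told apart. The control libraries are called control column 2 and control column 3 after the deposited table, since its numbers do not match those of the control samples in the labels.

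The libraries held 47624630 to 51756221 reads assigned to genes, so counting error is small for the abundant members, whose precision depends on how far the pools differ. It has a larger part for members with few reads, Dusp2 most of all. Ggcx, which encodes gamma-glutamyl carboxylase, had 3971 and 3981 normalized counts in the controls and 234.2 and 643.4 in the knockouts (log2 fold change -3.35 ± 0.35 SE, limma adjusted p = 0.0163), the direction its genotype labels give. Of the islet hormones, Ins2 lay between 6158564 and 6615636 and Gcg between 1096489 and 1552086 in the 4 libraries. Markers of acinar cells, which make digestive enzymes, summed over 6 of 6 genes to 7996 and 9378 in the controls and to 3926 and 6803 in the knockouts, and no acinar marker was at 0. Markers of stellate cells and fibroblasts went the other way over 5 of 5 genes, with sums of 1354 and 1117 in the controls and 2198 and 1612 in the knockouts. In bulk islets, fewer cells of a type and less RNA per cell cannot be told apart.

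The promoters of 6 members are shown here because these genes set control column 3 apart from control column 2 in opposite directions, or differed most plainly by genotype, in the values that follow. Fos, Npas4 and Rgs2 were low in that library, and Fosl2, Nr4a1 and Dusp5 were high in it. The sequences are RefSeq's on GRCm38.p6, from 250 bases before a transcription start of the gene to 50 bases after it, 5′ to 3′. For Nr4a1, Fosl2 and Npas4 this start lies inside the gene as GENCODE M21 places it. Those genes begin at 101254269, at 32135801 and, on the minus strand, at 4990316. It also lies inside, but nearer the annotated start, for Dusp5 (53529109) and Rgs2 (144004161, minus strand). Other starts are not shown. Capitals mark matches on either strand to TGACG (the core of the cAMP response element, or CRE, and CGTCA on the other strand), to the EGR site GCGGGGGCG, or to the CArG box that serum response factor binds.
Fos (chr12:85473640-85473939, plus strand): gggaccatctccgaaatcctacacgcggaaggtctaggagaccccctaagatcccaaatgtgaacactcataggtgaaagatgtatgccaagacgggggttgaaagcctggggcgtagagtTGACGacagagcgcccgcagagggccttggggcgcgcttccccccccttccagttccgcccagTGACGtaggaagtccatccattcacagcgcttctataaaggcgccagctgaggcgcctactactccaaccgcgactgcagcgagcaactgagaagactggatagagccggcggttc
Npas4 (chr19:4989922-4990221, minus strand): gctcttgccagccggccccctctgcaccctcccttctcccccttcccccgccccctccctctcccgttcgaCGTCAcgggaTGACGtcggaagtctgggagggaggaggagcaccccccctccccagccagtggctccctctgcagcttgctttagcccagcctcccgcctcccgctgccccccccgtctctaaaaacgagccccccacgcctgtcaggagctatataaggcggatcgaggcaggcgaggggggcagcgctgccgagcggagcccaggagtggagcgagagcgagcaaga
Rgs2 (chr1:144004100-144004399, minus strand): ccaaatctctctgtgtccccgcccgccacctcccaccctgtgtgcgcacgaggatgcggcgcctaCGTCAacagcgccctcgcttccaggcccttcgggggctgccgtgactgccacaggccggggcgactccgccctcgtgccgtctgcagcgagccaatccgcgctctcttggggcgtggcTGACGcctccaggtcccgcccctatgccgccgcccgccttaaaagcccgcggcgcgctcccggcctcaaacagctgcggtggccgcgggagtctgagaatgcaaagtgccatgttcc
Fosl2 (chr5:32136222-32136521, plus strand): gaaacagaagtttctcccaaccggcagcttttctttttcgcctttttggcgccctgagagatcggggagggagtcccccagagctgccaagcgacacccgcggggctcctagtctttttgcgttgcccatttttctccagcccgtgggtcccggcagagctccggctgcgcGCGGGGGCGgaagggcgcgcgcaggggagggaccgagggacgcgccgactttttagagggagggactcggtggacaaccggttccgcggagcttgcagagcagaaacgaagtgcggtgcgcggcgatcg
Nr4a1 (chr15:101266596-101266895, plus strand): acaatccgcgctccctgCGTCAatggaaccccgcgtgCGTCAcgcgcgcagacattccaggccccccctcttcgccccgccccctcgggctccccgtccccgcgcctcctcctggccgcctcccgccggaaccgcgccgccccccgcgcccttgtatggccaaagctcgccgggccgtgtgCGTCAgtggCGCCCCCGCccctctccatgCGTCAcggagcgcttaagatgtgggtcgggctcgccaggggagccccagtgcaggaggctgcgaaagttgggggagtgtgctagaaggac
Dusp5 (chr19:53528895-53529194, plus strand): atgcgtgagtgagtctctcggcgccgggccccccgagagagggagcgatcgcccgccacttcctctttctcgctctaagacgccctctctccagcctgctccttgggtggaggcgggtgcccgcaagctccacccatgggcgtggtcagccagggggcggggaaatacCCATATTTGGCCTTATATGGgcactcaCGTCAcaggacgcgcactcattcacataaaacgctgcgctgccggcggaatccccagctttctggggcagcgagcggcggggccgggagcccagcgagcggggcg

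Windows of this kind were available for 26 of the 36 members, among 32851 windows of all genes. These 26 members had 30 windows, and a gene is counted once if any of its windows holds the letters, for members and for all 27025 genes with a window alike. The 5-base CRE core was found for 18 of the 26 members and for 23% of all genes. In the sequences above, Nr4a1 held 4 matches, Fos, Npas4 and Rgs2 held 2 each, Dusp5 held 1 and Fosl2 held none. The palindromic CRE, TGACGTCA, which includes the core, was found for Btg2 and Dusp1 (2.03% of all genes). A CArG box was found for Dusp5, Egr2 and Zfp36 (1.81% of all genes), and Dusp5 held 2 of them side by side. The EGR site was found for 7 members, Fosl2 and Nr4a1 included (3.31% of all genes). The AP-1 site TGACTCA (5.95% of all genes) and the NR4A response element AAAGGTCA (1.70%) were found for 0 of the 26 on either strand. A match is a run of letters and not a measured site. The windows shown were picked by expression values, and any tie between matches and those values was not tested.

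Averaged over the libraries, many of these transcripts were near the top of the islet transcriptome. Per kilobase of exon, Jun, Fos, Jund, Egr1, Fosb, Junb and Btg2 were among the 100 highest of the tested genes, and 22 of 36 members were among the 1000 highest. The members together took 1.93% and 1.82% of the normalized total in control columns 2 and 3, and 1.74% and 1.94% in knockout replicates 1 and 2. Jun, Fosb, Egr1 and Fos alone took 1.06% to 1.20%. Levels per kilobase ran from 51690 normalized counts for Jun, the partner common to many AP-1 dimers, through 5085 for Nr4a1 and 469 for Fosl2, to 10.8 for Dusp2. The median of all tested genes was 153.2. Ordered by this level, 24 of 35 neighbouring pairs overlapped in their range over the 4 libraries. Among them, Jun, Fos and Jund overlapped in turn, as did Egr1 and Fosb. The steps from Jund down to Egr1, from Fosb to Junb and from Btg2 to Klf6 exceeded these ranges.

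**Figure D1:**
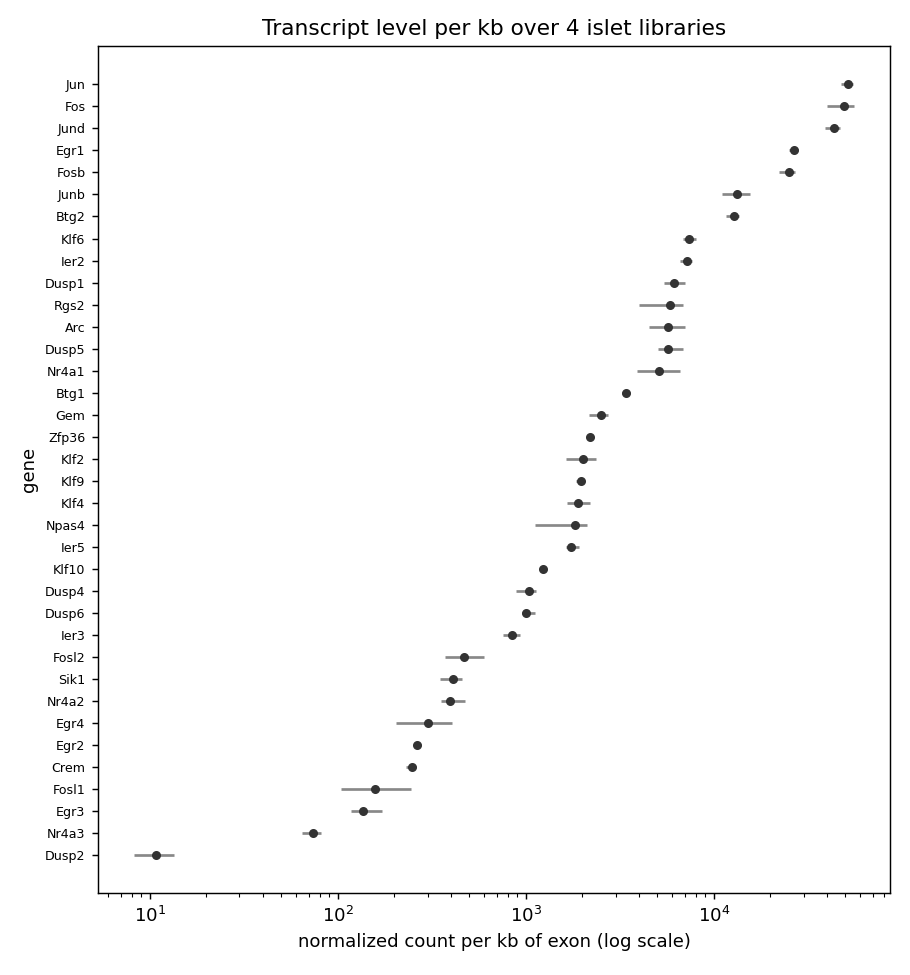
Normalized count per kilobase of exon for the 36 members on a log axis, with points at the mean and lines from the lowest to the highest of 4 libraries. Jun, Fos and Jund lead, between 43274 and 51690, and Dusp2 is far below the rest at 10.8.

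No member passed the test between genotypes, which was limma on log2(normalized count + 1) with p adjusted over all 16589 genes. The count was 0 of 36 higher (0.247% of all tested genes) and 0 of 36 lower (0.374%). At an unadjusted p under 0.05, 2 members were higher in knockout islets (6.74% of all genes) and 8 were lower (7.34%). edgeR on the whole reads called 0 higher (0.344% of all genes) and 0 lower (0.428%), with 2 higher (7.03%) and 8 lower (7.04%) unadjusted. DESeq2 on the reads called Klf4 higher (0.943% of its tested genes) and Arc, Dusp5, Fosl1 and Junb lower (1.63%). The authors' deposited table holds the same 5 below an adjusted p of 0.05 (0.83% of genes higher, 1.52% lower). These 2 lists are not independent, since the reads came from that table and DESeq2 is among the authors' tools. The median log2 fold change over the 36 members was -0.05, against 0.0002 over all tested genes, and 23 of the 36 were below 0 (49.9% of all genes). The 95% interval lay within a 1.5-fold change in either direction for 28 members and within a 2-fold change for 34, the exceptions being Fosl1 and Dusp2.

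**Figure D2:**
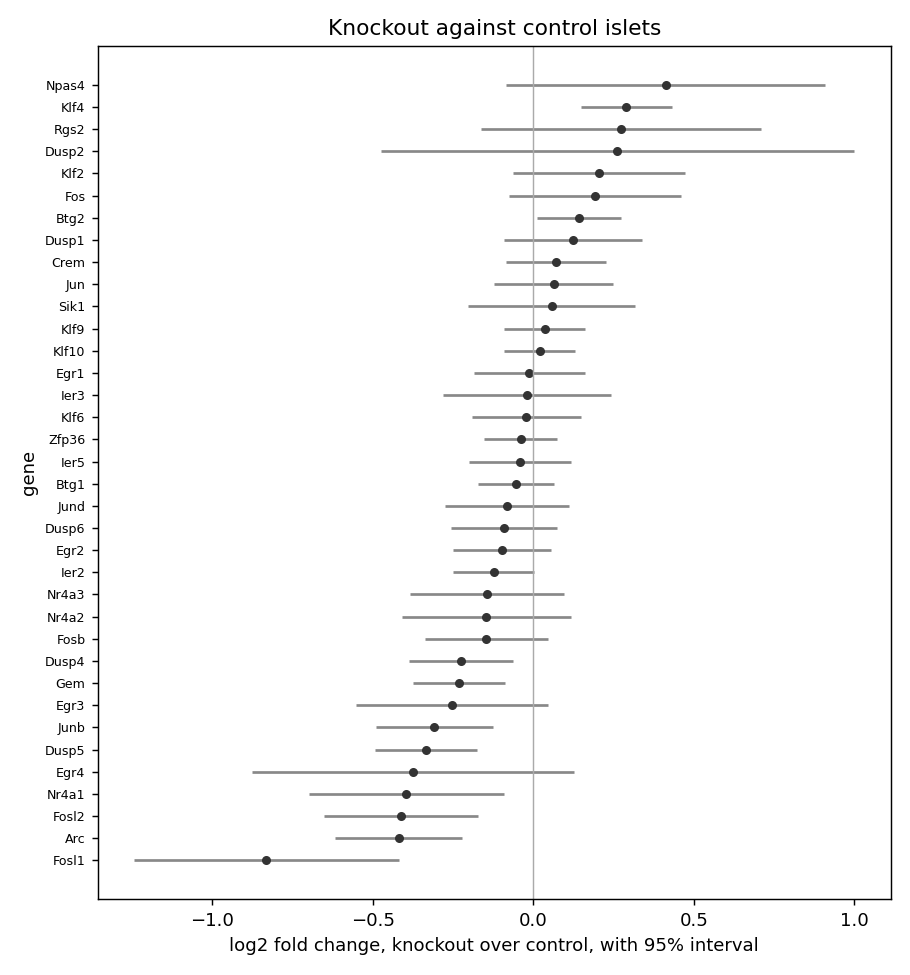
Log2 fold change of each member, knockout over control, with its 95% interval from limma; the grey line marks no change. Fosl1 is lowest at -0.83 and Npas4 highest at 0.41, and the intervals of Fosl1, Arc, Fosl2, Nr4a1, Dusp5, Junb, Gem and Dusp4 lie below 0 before adjustment.

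In the FOS family the log2 fold changes ran from -0.83 for Fosl1 to 0.19 for Fos, and none of the 4 genes passed the test. Fos, whose product is the classical AP-1 partner of JUN, had 123089 and 94256 normalized counts in control columns 2 and 3 and 115168 and 131548 in knockout replicates 1 and 2. The 2 knockouts lay on either side of control column 2, and control column 3 was the lowest library (log2 fold change 0.19 ± 0.12 SE, limma adjusted p = 0.527). Fosb had 161608 and 168855 in controls and 137875 and 161546 in knockouts. Both knockouts lay below both controls, but control column 2 and knockout replicate 2 were level (log2 fold change -0.15 ± 0.08 SE).

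Fosl1 (ENSMUSG00000024912; GRCm38 chromosome 19, 5447547 to 5455946, plus strand) encodes FRA-1, an AP-1 subunit without the transactivation domain of FOS. It had 327.0 and 497.8 normalized counts in controls and 211.3 and 242.6 in knockouts. The groups did not overlap, and the means were 412 ± 121 and 227 ± 22.1 (SD, n = 2 each). On the log2 scale knockouts differed from controls by -0.83 ± 0.18 SE (95% interval -1.24 to -0.42, limma adjusted p = 0.0820). Fosl1 exons overlap those of Ccdc85b on the opposite strand, and the sources used here do not say whether the counting used strand. Fosl2, which encodes the related FRA-2, had 4578 and 5814 in controls and 3620 and 4153 in knockouts, again without overlap (log2 fold change -0.41 ± 0.11 SE, limma adjusted p = 0.117). Fosl1 and Fosl2 were both highest in control column 3 and lowest in knockout replicate 1.

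None of the 3 JUN genes passed the test. Jun had 170859 and 151727 normalized counts in controls and 160935 and 175832 in knockouts, with the groups interleaved (log2 fold change 0.06 ± 0.08 SE). Junb (ENSMUSG00000052837; GRCm38 chromosome 8, 84974484 to 84978718, minus strand) encodes an AP-1 subunit that activates less strongly than JUN. It had 31693 and 35775 in controls and 25281 and 29269 in knockouts, with no overlap. Its means were 33734 ± 2886 and 27275 ± 2820 (SD, n = 2 each), which on the log2 scale is a difference of -0.31 ± 0.08 SE (95% interval -0.49 to -0.13, limma adjusted p = 0.122). Junb exons overlap those of Prdx2 on the opposite strand. Jund had 69808 and 78540 in controls and 64877 and 75496 in knockouts, and the groups overlapped.

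Ratios within a library do not depend on its scaling. The count of Junb over Jun was 0.186 and 0.236 in control columns 2 and 3 and 0.157 and 0.167 in the knockouts. Fosl2 over Fos was 0.0372 and 0.0617 in controls and 0.0314 and 0.0316 in knockouts. Fosb over Fos was 1.31 and 1.79 in controls and 1.20 and 1.23 in knockouts. Each of these 3 ratios, picked after their values were seen, was lower in both knockouts than in both controls, was close between the knockouts and was far apart between the controls. The ratios over Fos are not independent, since they share Fos, which was itself lowest in control column 3. The share of Fos in its family rests on the same counts. Per kilobase, Fos made up 59.0% of the summed FOS family in control column 3 and 66.4% to 68.5% in the other 3 libraries.

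In the EGR family Egr1 dominated, with 96.8% to 97.8% of the family's level per kilobase. It had 125874 and 114353 normalized counts in controls and 113079 and 125203 in knockouts, a log2 fold change of -0.01 ± 0.08 SE (95% interval -0.18 to 0.16). Egr2 was even across libraries, at 941.1 and 919.6 in controls and 865.9 and 872.6 in knockouts (log2 fold change -0.10 ± 0.07 SE, adjusted p = 0.582 by limma). Egr3 had 563.0 and 753.0 in controls and 516.2 and 579.2 in knockouts. Egr4 had 587.5 and 870.9 in controls and 438.2 and 694.2 in knockouts. Both Egr3 and Egr4 were highest in control column 3, lowest in knockout replicate 1 and overlapped between groups. Egr4 differed as much between the 2 knockouts, 1.58-fold, as between the 2 controls, 1.48-fold.

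Nr4a1, which encodes NUR77, made up 89.6% to 92.2% of the NR4A family per kilobase. It had 17406 and 23194 normalized counts in controls and 13614 and 17155 in knockouts. The groups did not overlap, but control column 2 and knockout replicate 2 were nearly level (log2 fold change -0.39 ± 0.13 SE, limma adjusted p = 0.228). Nr4a2 had 1441 and 1934 in controls and 1528 and 1488 in knockouts, so both knockouts lay between the controls. Nr4a3 had 437.3 and 485.1 in controls and 448.6 and 387.4 in knockouts, with overlap (log2 fold change -0.14 ± 0.11 SE).

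The IER genes, whose products are short-lived regulators of transcription and survival, differed little. Ier2 had 11606 and 11250 normalized counts in controls and 10014 and 10986 in knockouts (log2 fold change -0.12 ± 0.06 SE, adjusted p = 0.366 by limma). Ier3 had 1053 and 868.0 in controls and 855.5 and 1041 in knockouts, and Ier5 had 6260 and 5374 against 5539 and 5735. Only Ier2 of these 3 was without overlap.

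The DUSP phosphatases remove the activating phosphates of MAP kinases and are induced by the pathway that they restrain. Dusp5 (ENSMUSG00000034765; GRCm38 chromosome 19, 53529109 to 53542431, plus strand), which acts on nuclear ERK, had 14558 and 17037 normalized counts in controls and 12406 and 12581 in knockouts. The knockouts were within 1.01-fold of each other and below both controls, with means of 15797 ± 1753 and 12494 ± 124 (SD, n = 2 each). This difference was -0.33 ± 0.07 SE on the log2 scale (95% interval -0.49 to -0.17, limma adjusted p = 0.0751). Dusp4, which also acts on nuclear MAP kinases, had 3064 and 3086 in controls and 2442 and 2834 in knockouts, without overlap (log2 fold change -0.23 ± 0.07 SE, limma adjusted p = 0.195). Dusp6, which acts on ERK in the cytoplasm, had 3503 and 3010 in controls and 2993 and 3108 in knockouts (log2 fold change -0.09 ± 0.07 SE).
Dusp1, a nuclear phosphatase of stress kinases, went the other way in value, with 20885 and 17900 in controls and 19207 and 23149 in knockouts (log2 fold change 0.13 ± 0.09 SE). Dusp5 over Dusp1 was 0.697 and 0.952 in controls and 0.646 and 0.543 in knockouts. Dusp2 had 22.5 and 16.6 in controls and 27.1 and 20.1 in knockouts, a level at which counting error is large.

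Zfp36, which encodes an RNA-binding protein that speeds decay of AU-rich mRNAs, was the steadiest of the regulators of RNA decay and growth, with 7850 and 7550 in controls and 7317 and 7670 in knockouts (log2 fold change -0.04 ± 0.05 SE). Btg1 had 18815 and 17670 in controls and 17144 and 17988 in knockouts. Btg2, an antiproliferative gene also controlled by p53, had 34859 and 31768 in controls and 36343 and 37130 in knockouts. The Btg2 groups did not overlap, and the log2 fold change was 0.14 ± 0.06 SE (limma adjusted p = 0.314).

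Among the KLF zinc finger factors, Klf4 (ENSMUSG00000003032; GRCm38 chromosome 4, 55527143 to 55532466, minus strand) was the member with the smallest p among those higher in value in knockouts. It had 5401 and 5027 normalized counts in controls and 6055 and 6697 in knockouts, means of 5214 ± 265 and 6376 ± 454 (SD, n = 2 each). The groups did not overlap, and the log2 fold change was 0.29 ± 0.06 SE (95% interval 0.15 to 0.43, limma adjusted p = 0.0796). Klf2, like Klf4 a gene of flow-exposed endothelium, had 3935 and 3032 in controls and 3642 and 4353 in knockouts (log2 fold change 0.21 ± 0.12 SE). Summed endothelial markers (4 of 4 tested) were 19897 and 17046 in controls and 18541 and 19974 in knockouts. All 4 (Plvap, Kdr, Pecam1 and Cdh5) were lowest in control column 3, as Klf2 and Klf4 were. Klf2 and Klf4 were highest in knockout replicate 2, as was Plvap, while Kdr, Pecam1 and Cdh5 were highest in control column 2. Their part in these values was not tested. Klf6 had 35326 and 30036 against 31298 and 32921, Klf9 9784 and 8897 against 9700 and 9425, and Klf10 5132 and 5139 against 5319 and 5094, all with log2 fold changes between -0.02 and 0.04.

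The activity- and cAMP-responsive genes held the lowest adjusted p of the members, that of Arc, and the widest gaps between the 2 controls, those of Npas4 and Rgs2. Arc (ENSMUSG00000022602; GRCm38 chromosome 15, 74669083 to 74672570, minus strand), known from neurons as a regulator of synaptic receptors, had 18538 and 21490 normalized counts in controls and 13785 and 16171 in knockouts. The groups did not overlap, with means of 20014 ± 2087 and 14978 ± 1687 (SD, n = 2 each). On the log2 scale the difference was -0.42 ± 0.09 SE (95% interval -0.62 to -0.22), with a limma adjusted p of 0.0724. Gem, which encodes a small GTPase that inhibits voltage-gated calcium channels, had 5681 and 5756 in controls and 4579 and 5186 in knockouts, without overlap (log2 fold change -0.23 ± 0.06 SE, limma adjusted p = 0.135).
Npas4, a transcription factor induced by depolarization and calcium entry, had 8657 and 4655 in controls and 8153 and 8748 in knockouts. Rgs2, which encodes a GTPase-activating protein for Gq signalling, had 24827 and 14416 in controls and 23302 and 22427 in knockouts. For both genes control column 3 alone was low and the other 3 libraries were close together.
Sik1, a kinase that restrains the CREB coactivators, had 1786 and 2357 in controls and 2024 and 2252 in knockouts. Crem, whose locus also encodes the cAMP-induced repressor ICER, had 1504 and 1366 against 1543 and 1466. The log2 fold change was 0.06 ± 0.11 SE for Sik1 and 0.07 ± 0.07 SE for Crem.

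Across the list, 11 of 36 members lay lower in both knockouts than in both controls, against 23% of all tested genes, and 2 (Btg2 and Klf4) lay higher in both, against 22%. The 11 were Arc, Dusp4, Dusp5, Egr2, Fosb, Fosl1, Fosl2, Gem, Ier2, Junb and Nr4a1. In 9 of these 11, the exceptions being Egr2 and Ier2, the libraries fell in 1 order from high to low, namely control column 3, control column 2, knockout replicate 2 and knockout replicate 1. Over the whole list that order held for 9 of 36 members, against 6.56% of all tested genes. Of the 3812 tested genes lower in both knockouts than in both controls, 1088 had that order. The summed acinar markers had the same order, and the part of acinar RNA in these members was not tested. Both knockout values lay inside the range of the 2 controls for 6 members (Ier5, Klf6, Klf9, Nr4a2, Rgs2 and Sik1), against 14.8% of all genes.

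**Figure D3:**
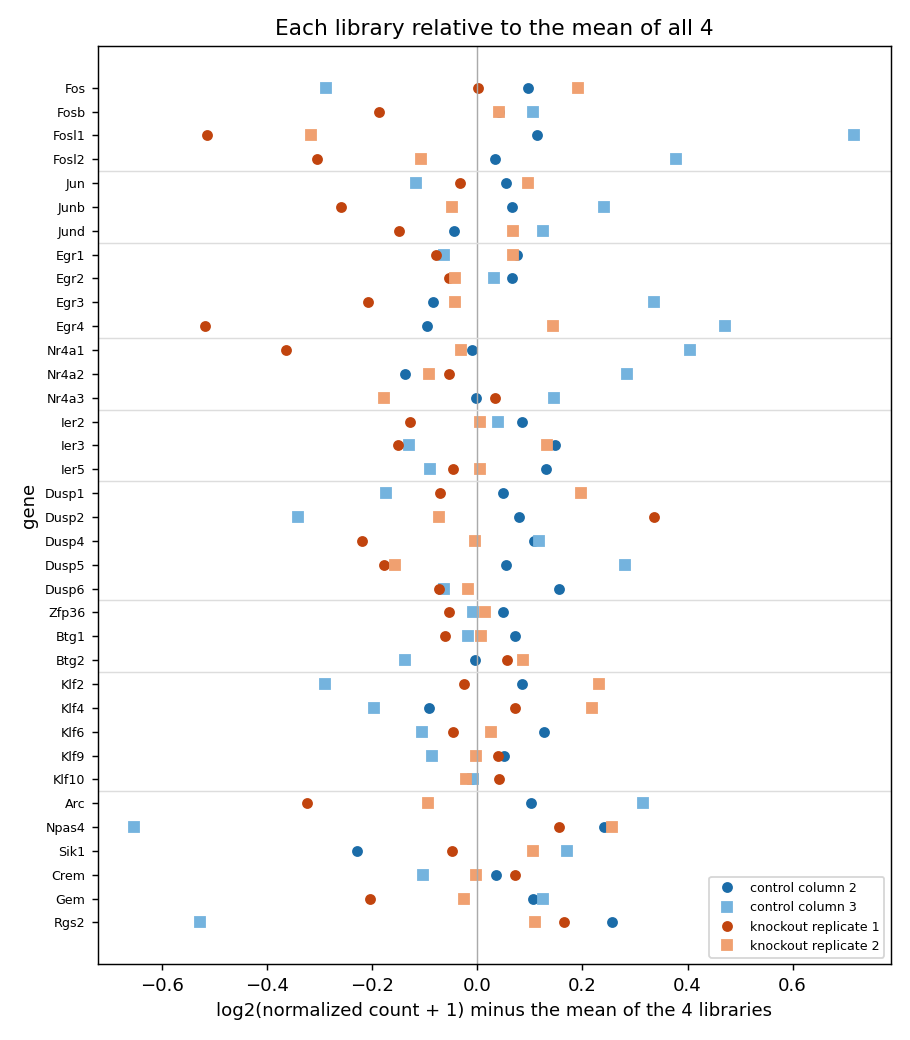
Each library's log2(normalized count + 1) for the 36 members, minus the mean of all 4 libraries, with controls in blue and knockouts in orange; horizontal lines divide the gene groups. Control column 3 (light blue squares) lies furthest right for Fosl1, Fosl2, Egr3, Egr4 and Nr4a1 and furthest left for Fos, Npas4 and Rgs2.

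The gaps between pools of 1 genotype were wide for these genes. Between the 2 controls, 6 members were at least 1.3-fold higher in column 3 (6.08% of all tested genes), namely Fosl1, Egr4, Nr4a2, Egr3, Nr4a1 and Sik1. The fold ran from 1.32 for Sik1 to 1.52 for Fosl1, and Fosl2 stood just below the limit at 1.27. Another 4 were at least 1.3-fold lower there (7.09% of all tested genes). They were Npas4 at 1.86-fold, Rgs2 at 1.72-fold, Dusp2 at 1.34-fold and Fos at 1.31-fold, with Klf2 just below the limit. Over the 10237 genes with a mean of 300 or more, which leave out Dusp2, the shares were 0.723% higher and 1.02% lower, beside 6 and 3 of 35 members.

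Between the 2 knockouts, 29 of 36 members were higher in replicate 2, against 50.1% of all tested genes, but most gaps were small. Egr4 at 1.58-fold was the 1 member at least 1.3-fold higher (5.67% of all tested genes, and 0.518% of those with a mean of 300 or more), and Dusp2 was that much lower (5.92%; 0 of 35 members with a mean of 300 or more, beside 0.469%). The median absolute log2 gap was 0.22 between the controls and 0.15 between the knockouts for the members, and 0.07 and 0.06 for the 10237 genes with a mean of 300 or more. In 23 of 36 members the 2 controls lay further apart than the 2 genotypes did, beside 53.2% of all tested genes. With 2 pools per genotype these gaps are a description and were not tested.

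**Figure D4:**
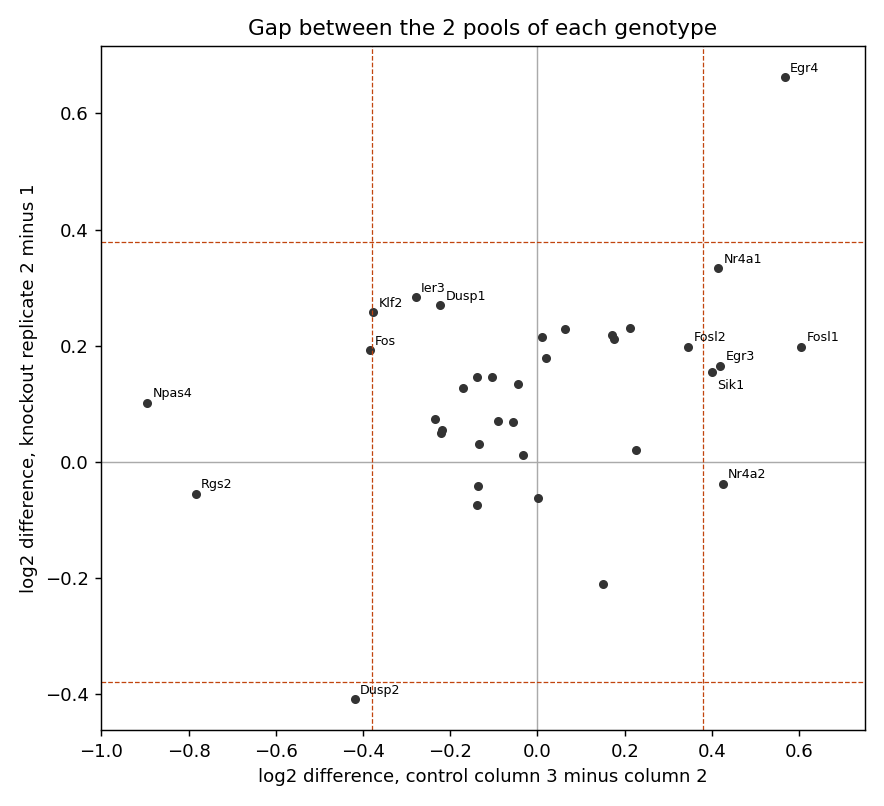
For each of 36 members, the log2 difference between the 2 control libraries (horizontal) and between the 2 knockout libraries (vertical); dashed lines mark 1.3-fold. Members spread along the horizontal axis from Npas4 at -0.90 to Fosl1 at 0.60, and 29 of them lie above the horizontal zero line.

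Which members passed the test depended on the pools used. Without control column 2, 7 members fell (1.45% of all genes), namely Arc, Dusp5, Fosl1, Fosl2, Junb, Nr4a1 and Nr4a2, and 3 rose (1.25%), namely Klf4, Npas4 and Rgs2. Without control column 3, 0 fell (0.295%) and 0 rose (0.35%), with 9 lower (6.95% of all genes) and 2 higher (6.68%) at an unadjusted p under 0.05. Without knockout replicate 2, 8 fell (0.892%), with Dusp4, Egr4 and Gem in place of Dusp5 and Nr4a2, and 0 rose (0.609%), with 1 higher (4.46%) at an unadjusted p under 0.05. Without knockout replicate 1, Klf4 alone rose (0.434%) and 0 fell (0.591%), with 5 lower (5.70%) at an unadjusted p under 0.05. The log2 fold change of Npas4 was 0.86 without control column 2 and -0.04 without control column 3, and that of Rgs2 was 0.67 and -0.12. That of Arc stayed between -0.53 and -0.30 and that of Klf4 between 0.22 and 0.36 whichever library was left out.

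Genes that act upstream of the list, or are induced beside it, were read in the same fit. Of 27 tested upstream regulators (MAP kinases, CREB and serum response factor with their cofactors), 0 passed with limma or DESeq2. At an unadjusted limma p under 0.05, 6 were lower (7.34% of all tested genes) and 0 were higher (6.74%), and the median log2 fold change was -0.04. edgeR called 1 of them lower, Srf. Srf, which encodes serum response factor itself, had 9187 and 11190 normalized counts in controls and 6667 and 7535 in knockouts. Its groups did not overlap, and its log2 fold change was -0.52 ± 0.09 SE (95% interval -0.72 to -0.31, limma adjusted p = 0.0507).

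Of 30 other immediate early genes tested, 0 passed with limma or edgeR. At an unadjusted limma p under 0.05, 5 were higher (6.74% of all tested genes) and 7 lower (7.34%), and the median log2 fold change was -0.06. DESeq2 called Myc and Vgf higher and Per1 lower. Per1, a clock gene induced by cAMP and the possible match for Per1l, had 12711 and 14003 normalized counts in controls and 9144 and 10783 in knockouts, without overlap (log2 fold change -0.43 ± 0.08 SE, limma adjusted p = 0.0560). The most abundant were Rhob, at 35808 and 34203 in controls and 33412 and 36306 in knockouts, and Irs2, at 33478 and 30200 against 31001 and 31304. Among other AP-1 family partners, Atf4, the stress-response factor, had 25325 and 25997 in controls and 21085 and 23265 in knockouts (log2 fold change -0.21 ± 0.06 SE, limma adjusted p = 0.134). Atf3 had 19669 and 19070 against 20600 and 21523 (log2 fold change 0.12 ± 0.05 SE, limma adjusted p = 0.314).

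Of 11 heat shock genes, which tissue handling also raises, 0 passed with limma or edgeR. At an unadjusted limma p under 0.05, 0 were higher (6.74% of all tested genes) and 3 lower (7.34%), and the median log2 fold change was 0.0004. The 3 were Hsph1, Dnaja1 and Hspd1, named after their values were seen, and DESeq2 called Hsph1 and Dnaja1 lower. Hsph1 had 65354 and 68904 normalized counts in controls and 50161 and 55796 in knockouts (log2 fold change -0.34 ± 0.07 SE, limma adjusted p = 0.0607). Dnaja1 had 28859 and 29794 against 23099 and 24829 (log2 fold change -0.29 ± 0.05 SE, limma adjusted p = 0.0550), and Hspd1 had 22227 and 22550 against 19557 and 20288. None of the 11 differed by 1.3-fold or more between the 2 controls. Of all tested genes, 6.08% were that much higher in column 3 and 7.09% lower. Among genes with a mean of 300 or more, as these 11 have, the shares were only 0.723% and 1.02%. Dnajb1 had 168352 and 161216 normalized counts in controls and 154879 and 175804 in knockouts, and Hspa8 had 135593 and 134297 against 136273 and 136354.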

How the data were processed

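RNA was measured in 4 islet samples, 2 per genotype. Each deposited signal value is a read count scaled to library size, per the file headers and name. Per the submitters' processing notes, the tools were STAR 2.5.1b, featureCounts 1.6.0, CASAVA 1.4 and DESeq2 1.22.2 with build GRCm38, their roles not being stated. Annotation and strand setting: not given in the sources used here. A log2 fold change and adjusted p-value per gene, deposited by the authors, were used only where named. Values were whole multiples of 1 read for 100% of values (tolerance 0.01), so reads were recovered.

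Genes with a value of 10 or more in at least 2 libraries were fitted with limma 3.58.1 (R 4.3.3) on log2(value + 1) with a mean-variance trend, two-sided, with Benjamini-Hochberg adjustment over all 16589 genes at 0.05. The pseudocount of 1 understates changes of low genes. Variances rested on 2 residual and 6.85 prior degrees of freedom. edgeR 4.0.16 and DESeq2 1.42.0 on the reads were alternatives. Every member was named. From each related list, up to 4 called genes and the 2 most abundant were named (some are not reported here), and others are said to be chosen after their values were seen. Members and lists were chosen with earlier results of these data known. The replicates of each genotype differed well beyond counting noise (chi-square over degrees of freedom 10.1 and 9.85), and nothing in the labels says whether their mice shared a litter or day. Exon lengths, coordinates and overlaps are from GENCODE M21 on GRCm38, which holds 99.4% of the identifiers. Exons of 8 members overlap another tested gene: Fosl1, Jun, Junb, Jund, Dusp1, Dusp5, Zfp36 and Crem, all on the opposite strand.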

Additional observations from a re-analysis of the deposited data

How the results depend on the processing

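With all 4 libraries, 352 of 359 values of single members kept their direction and side of the threshold under the other pseudocounts, filters, scalings and tests. Of the rest, 5 passed the threshold with DESeq2 (1 higher, 4 lower, as named above), and Egr1 (0.0091) and Ier3 (0.0022) changed sign with a common upper quartile, 2 values close to 0. Over all tested genes, 41 were higher and 62 lower. These counts were 1 and 1 with no filter on low values, 19 and 32 when values of 50 were required, 39 and 33 when upper quartiles were equalized, 85 and 124 with robust empirical Bayes, and 120 and 208 with DESeq2, where 3860 adjusted p-values were NA. Without the mean-variance trend they were 0 and 0, with 1841 genes at an unadjusted p under 0.05. Higher genes made up 39.8% of calls, and 54.2% with a common upper quartile. The cause of these shifts was not tested.

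Leaving out 1 library at a time, an arm with 1 library being assumed to vary like the other arm, gave 58 to 207 genes higher and 49 to 241 lower, and 0 to 3 members higher and 0 to 8 lower. Of 144 such member values, 21 changed sign and 19 passed the threshold. The members that changed sign had these ranges of log2 fold change: Dusp1 -0.0096 to 0.26, Dusp6 -0.20 to 0.019, Egr1 -0.085 to 0.061, Fos -3.32e-05 to 0.39, Ier3 -0.16 to 0.12, Ier5 -0.15 to 0.069, Jun -0.022 to 0.15, Jund -0.19 to 0.028, Klf10 -0.012 to 0.051, Klf6 -0.14 to 0.096, Klf9 -0.033 to 0.10, Npas4 -0.036 to 0.86, Nr4a2 -0.36 to 0.066, Rgs2 -0.12 to 0.67, Sik1 -0.14 to 0.26. The other 21 kept their sign. No paired analysis was possible because the control columns are numbered 2 and 3 and the knockout columns 1 and 2, so the genotypes share fewer than 2 numbers. With 2 pools per genotype, the spread between pools more than depth limits the abundant members. Depth has a larger part for members with few reads, Dusp2 most of all. For Egr2, at 865.9 to 941.1 normalized counts, the log2 gaps between pools were only -0.03 in controls and 0.01 in knockouts.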

Other observations

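Other immediate early genes outside the list also separated the 2 control pools. Of 30 tested, 5 were at least 1.3-fold lower in control column 3 than in column 2 (7.09% of all tested genes, and 1.02% of those with a mean of 300 or more). At least 1.3-fold higher were 0 (6.08% and 0.723%). These genes are named after their values were seen. Nfkbiz, an inducible regulator of NF-kB target genes, had 4014 and 2385 normalized counts in control columns 2 and 3 and 3696 and 4060 in knockout replicates 1 and 2. Ccn1, a matricellular growth factor gene induced through serum response factor and YAP, had 6138 and 3993 in controls and 6839 and 7403 in knockouts. Myc had 713.2 and 534.8 against 872.2 and 953.1, and Cebpd had 834.8 and 568.9 against 836.8 and 964.6. Ccn2, the other of the 5, had 703.0 and 454.0 against 739.0 and 663.5. For all 5 genes control column 3 was the lowest library, as it was for Npas4, Rgs2 and Fos. The rule that picked these genes already placed control column 3 below control column 2. The gene for pancreatic polypeptide, Ppy, was also lower in control column 3, at 62166, than in the other libraries, at 100292 to 117622. Whether these gaps share a source was not tested.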
